A study of Homo sapiens with 6 samples.

Results

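The type II transmembrane serine proteases, the membrane-anchored protease prostasin and their Kunitz-type inhibitors were described in parental LNCaP cells (n = 3) and in an enzalutamide-resistant derivative, LNCaP-enzaR (n = 3). The 9 genes were taken by name from the deposited table of 35554 genes: TMPRSS2, TMPRSS3, TMPRSS4, TMPRSS6, ST14, HPN and PRSS8 encode proteases, and SPINT1 and SPINT2 encode inhibitors. LNCaP is an established line from a human prostate cancer metastasis that depends on androgens, and enzalutamide blocks the androgen receptor. The resistant line was derived by continuous culture in the drug and then kept on less of it, and the sources used here do not say whether drug was present at harvest or whether the line is a clone. Flasks were plated in triplicate per line and harvested below confluence, so p-values measure the spread between these samples of 2 particular lines, which may be partly technical. The genes were selected on earlier results of this same contrast, the difference in read counts between the lines, and their own differences are therefore given as a description with no test.

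Type II transmembrane serine proteases are held in the plasma membrane by a single span near the amino terminus and carry a trypsin-like domain outside the cell. They are made as inactive zymogens and are activated by cleavage, often by one another, after which Kunitz-type inhibitors on the same surface restrain them. In prostate, TMPRSS2 is known as an androgen-induced gene and hepsin as a protease raised in carcinoma, while matriptase, prostasin and both inhibitors form a circuit found in most epithelia.

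Libraries held 77759122 to 98616465 counts. Transcripts of the mitochondrial genome took 6.72% to 7.06% of the counts in parental cells and 14.7% to 15.5% in LNCaP-enzaR. Expression is compared between the lines as CPM, counts per 1000000 of a library whose total is multiplied by a TMM factor (0.967 to 1.02), and the part of the mitochondrial share in the values was not tested beyond leaving those genes out, which changed no call of the 9 genes. Of the LNCaP-enzaR libraries, replicate 1 stood apart: its counts differed from those of replicates 2 and 3 by a chi-square of 35.6 and 28.2 per degree of freedom, against 6.97 between the latter. Luminal markers were present in both lines (8 of 8, summed to 4200 to 4360 CPM in parental and 2990 to 3330 CPM in LNCaP-enzaR libraries). The basal markers KRT5 and TP63 and the leukocyte marker CD3E never exceeded 3 counts, but markers of other cell types were not all absent. Basal markers summed to 0.923 to 1.71 CPM in parental and 0.433 to 0.8 CPM in LNCaP-enzaR libraries, mostly as KRT14. Fibroblast markers summed to 14.1 to 17.2 and 6.73 to 7.16 CPM, mostly as COL1A1. Endothelial markers summed to 5.47 to 6.1 and 3.93 to 4.35 CPM, mostly as VWF, and leukocyte markers to at most 0.151 CPM. The luminal markers moved in both directions: the androgen target KLK3 fell from 1190 ± 42.1 to 141 ± 9.26 CPM (SD, n = 3 each; edgeR adjusted p = 4.38e-14), whereas the keratin KRT8 rose from 397 ± 19.6 to 886 ± 122 CPM (adjusted p = 1.31e-08).

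Promoter sequence was at hand for HPN, SPINT1 and TMPRSS3 (RefSeq, GRCh38.p14), and not for the other 6 genes. The windows of HPN and SPINT1 are shown because both genes were among those with higher levels in LNCaP-enzaR. They are written 5′ to 3′ on the plus strand, with matches to the GC box GGGCGG and the E-box CACCTG, on either strand, in capitals. The HPN window is chr19:35041471-35041720, inside the gene as the deposited table draws it but outside the exons of GENCODE v44. That of SPINT1 is chr15:40843798-40844017, which ends at the deposited gene start and lies within the antisense gene SPINT1-AS1.
HPN: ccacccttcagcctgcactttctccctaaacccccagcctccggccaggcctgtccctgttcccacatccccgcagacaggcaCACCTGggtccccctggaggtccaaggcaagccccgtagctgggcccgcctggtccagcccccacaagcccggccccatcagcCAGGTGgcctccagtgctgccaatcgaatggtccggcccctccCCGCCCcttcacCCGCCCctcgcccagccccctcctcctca
SPINT1: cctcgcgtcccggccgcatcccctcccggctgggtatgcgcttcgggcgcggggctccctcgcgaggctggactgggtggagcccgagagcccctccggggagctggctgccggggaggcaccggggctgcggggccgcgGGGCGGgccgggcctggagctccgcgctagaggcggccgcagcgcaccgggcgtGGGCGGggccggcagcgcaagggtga
The HPN window had 2 GC boxes and 2 E-boxes in 250 bases, with a GC content of 70.4% and 10 CG dinucleotides. For SPINT1, the 220 bases shown had 2 GC boxes and no E-box, and the 250-base window from which they were taken had a GC content of 80.4% and 35 CG dinucleotides. Over the 35116 RefSeq promoters of 250 bases, a GC box was found in 42.6% and an E-box in 17.5%, and the median promoter had a GC content of 58.0% and 11 CG dinucleotides. The TATA box TATAAA (10.7% of promoters) and the androgen response half-site AGAACA (12.4%) had no match in the windows shown, which says only that those letters are not there. A second RefSeq start of SPINT1, whose window lies in annotated exon and is not shown, had 1 E-box and 1 half-site, and the TMPRSS3 window had no match to any of the 4 motifs.

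Of the 9 genes, 8 passed the filter on low counts and TMPRSS3 did not. TMPRSS6 passed it through its level in LNCaP-enzaR alone and TMPRSS4 through its level in parental cells alone. The libraries of the lines did not overlap for any of the 8, as for 70.6% of all genes tested. The threshold used for all genes (1.5-fold, with a Benjamini-Hochberg adjusted p up to 0.05 by edgeR) was met by 4 of the 8, with TMPRSS6, HPN and PRSS8 higher and TMPRSS4 lower in LNCaP-enzaR. Of all 19711 genes tested, 42.7% met it in either direction, 23.3% higher and 19.5% lower. Since the genes were proposed from this contrast, nothing is read from their count. Their median log2 fold change was 0.51, beside 0.01 over all genes tested.

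**Figure D1:**
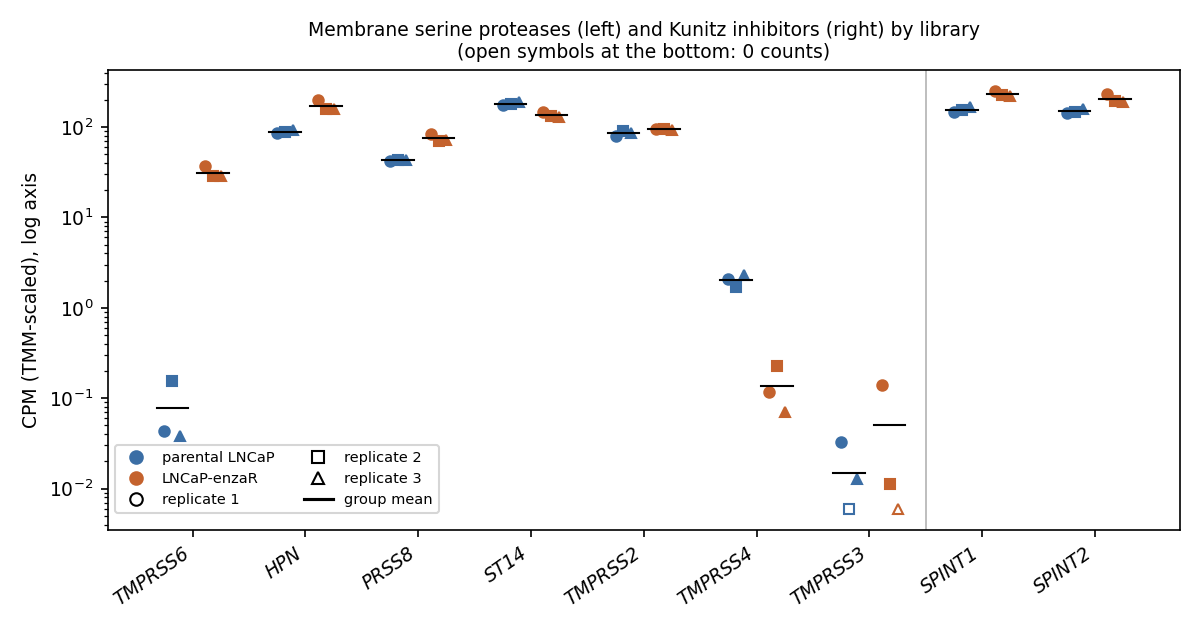
CPM of the 9 genes in each library (vertical log axis), with parental LNCaP in blue, LNCaP-enzaR in orange, replicates as circles, squares and triangles, and the group mean as a bar. TMPRSS6 lies between 0.0382 and 0.154 CPM in parental libraries and between 28.4 and 36.7 CPM in LNCaP-enzaR, TMPRSS4 moves the other way, and the remaining abundant genes differ by less.

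TMPRSS6 encodes matriptase-2, a protease best known from liver, where it cleaves the co-receptor hemojuvelin and so restrains production of the iron hormone hepcidin. The gene (ENSG00000187045.19, chromosome 22, 37065436 to 37109713, minus strand, GRCh38) had 4, 14 and 3 counts in parental replicates 1 to 3 and 3163, 2550 and 2819 counts in LNCaP-enzaR. In CPM, these were 0.0432, 0.154 and 0.0382 against 36.7, 28.9 and 28.4. Parental cells were thus near the limit of detection, and all LNCaP-enzaR libraries were well above it. The fitted difference was a log2 fold change of 8.59 (SE 0.23), which became 9.53 without parental replicate 2, the library with 14 counts (95% exact Poisson interval 7.65 to 23.5, counting error only). By contrast, the intervals of the other parental libraries reached no higher than 10.2 counts. The 3 genes most like TMPRSS6 over the 6 libraries, by the root mean square difference of centred log2 CPM among 10769 genes with a mean of at least 5 CPM, were A1CF (0.38), CTNND2 (0.51) and FHL1 (0.52). The search picks genes with a difference of similar size between the lines. Their low parental levels, 0.00791 to 0.0116 CPM on average, are thus largely set by it.

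TMPRSS4, a protease described in several carcinomas, showed the opposite pattern at a lower level. It (ENSG00000137648.19, chromosome 11, 118077012 to 118121890, plus strand) had 194, 156 and 179 counts in parental libraries and 10, 20 and 7 in LNCaP-enzaR, that is 2.10, 1.72 and 2.28 CPM against 0.116, 0.226 and 0.0705 CPM. Its log2 fold change was −3.89 (SE 0.33), or 14.8-fold lower in LNCaP-enzaR, and −4.44 to −3.55 when any single library was removed. Even in parental cells it was a minor transcript of the family.

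TMPRSS3, a gene of inherited hearing loss, was close to absent from both lines. It (ENSG00000160183.17, chromosome 21, 42371887 to 42396091, minus strand) had 3, 0 and 1 counts in parental libraries and 12, 1 and 0 in LNCaP-enzaR. All but 1 of the LNCaP-enzaR counts came from replicate 1 (12 counts, 95% exact Poisson interval 6.20 to 21.0). The libraries of the lines overlapped, and no difference was detectable at this depth.

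HPN encodes hepsin, which activates the precursor of hepatocyte growth factor and cleaves laminin-332. Parental libraries had 86.3, 87.7 and 91.8 CPM of HPN (ENSG00000105707.15, chromosome 19, 35040506 to 35066573, plus strand), and LNCaP-enzaR libraries had 198, 157 and 158 CPM. Levels were higher in 3 of 3 LNCaP-enzaR libraries and highest in replicate 1. The log2 fold change was 0.95 (SE 0.080), or 1.93-fold, and 0.84 without that replicate. Antisense to HPN runs HPN-AS1, whose exons share 10.3% of the exonic bases of HPN. Its level went the other way, from 3.32 ± 0.444 to 2.29 ± 0.402 CPM (a log2 difference of −0.53 ± 0.16 SE with an adjusted p = 0.0103), short of the 1.5-fold limit. The strand setting of the counting is not stated, so reads shared by both genes cannot be told apart. Exons of other genes also share 12% of the exonic bases of PRSS8, 15.3% of those of SPINT2 and 2.82% of those of SPINT1, with the same limit.

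ST14 encodes matriptase, the best studied protease of the family, and PRSS8 encodes prostasin, a membrane-anchored partner that matriptase can activate. ST14 (ENSG00000149418.11, chromosome 11, 130159782 to 130210362, plus strand) was at 177, 177 and 188 CPM in parental libraries and at 147, 134 and 129 CPM in LNCaP-enzaR. It was lower in each LNCaP-enzaR library by a log2 fold change of −0.40 (SE 0.060), which is 1.32-fold and short of the fold limit. PRSS8 (ENSG00000052344.16, chromosome 16, 31131433 to 31135727, minus strand) was at 42.0, 43.3 and 43.4 CPM in parental libraries and at 82.6, 69.7 and 71.4 CPM in LNCaP-enzaR. Prostasin transcripts thus moved opposite to those of matriptase, by a log2 fold change of 0.80 (SE 0.070), or 1.74-fold.

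TMPRSS2, the androgen-induced protease whose promoter is fused to ERG in many prostate cancers, differed least among the genes tested. The gene (ENSG00000184012.14, chromosome 21, 41464300 to 41531116, minus strand) was at 79.0, 89.3 and 86.6 CPM in parental libraries and at 95.3, 96.1 and 93.2 CPM in LNCaP-enzaR. The log2 fold change was 0.16 (SE 0.060), or 1.12-fold, well short of the fold limit. This small difference depended on the scale: per length (TPM, below), TMPRSS2 was lower in LNCaP-enzaR, at 40.9 ± 0.894 against 45.4 ± 2.36. Exons of MX1, on the opposite strand, share 8.53% of its exonic bases, and MX1 itself reached only 4.23 ± 0.0985 CPM.

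SPINT1 and SPINT2 encode HAI-1 and HAI-2, which carry Kunitz domains on the cell surface and block matriptase, hepsin and prostasin. SPINT1 (ENSG00000166145.15, chromosome 15, 40844018 to 40858207, plus strand) was at 148, 154 and 164 CPM in parental libraries and at 249, 223 and 222 CPM in LNCaP-enzaR. SPINT2 (ENSG00000167642.13, chromosome 19, 38244035 to 38292615, plus strand) went from 144, 148 and 158 CPM to 232, 194 and 189 CPM. Both inhibitors were higher in 3 of 3 LNCaP-enzaR libraries, by log2 fold changes of 0.57 (SE 0.062) and 0.45 (SE 0.074). SPINT1, at 1.49-fold, fell just short of the 1.5-fold limit and passed it under several alternatives, among them removal of parental replicate 3 (0.61) or of replicate 2 or 3 of LNCaP-enzaR (0.60 and 0.61). SPINT1-AS1, whose gene covers the SPINT1 window shown above, was also higher, at 7.47 ± 0.703 against 4.61 ± 0.221 CPM (a log2 difference of 0.70 ± 0.11 SE with an adjusted p = 4.26e-05). SPINT1 had the highest CPM of the 9 genes averaged over all 6 libraries, although ST14 was above it in each parental library, and the genes most like it over the 6 libraries were CDC34, SIDT2 and BRF1 (root mean square difference of 0.018, 0.020 and 0.023 on the log2 scale).

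**Figure D2:**
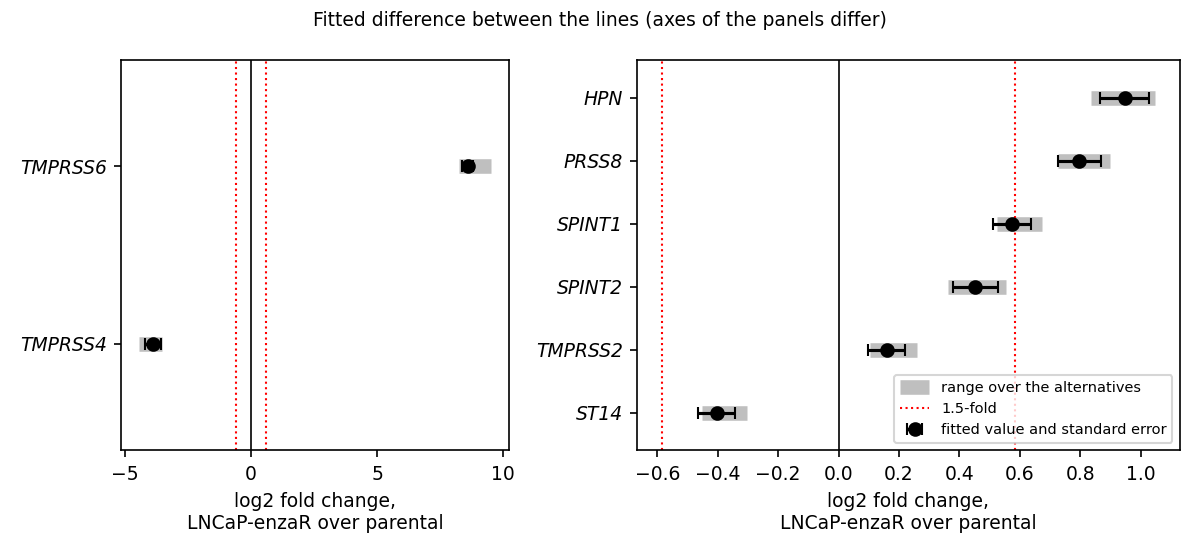
Log2 fold change of LNCaP-enzaR over parental for the 8 genes tested (points, with standard error), the range over the alternatives (grey bars) and the 1.5-fold limits (dotted lines), in panels with different axes. The 6 abundant genes lie between −0.40 for ST14 and 0.95 for HPN, with SPINT1 at the limit, while TMPRSS4 and TMPRSS6 lie at −3.89 and 8.59.

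The spread between flasks was shared among the abundant genes. In LNCaP-enzaR, replicate 1 had the highest CPM for 6 of the 8 genes (TMPRSS6, ST14, HPN, PRSS8, SPINT1 and SPINT2). Among parental libraries, replicate 3 was highest and replicate 1 lowest for 5 genes alike: ST14, HPN, PRSS8, SPINT1 and SPINT2. Without LNCaP-enzaR replicate 1, log2 fold changes were 0.73 for PRSS8, 0.52 for SPINT1, 0.36 for SPINT2, −0.45 for ST14, 0.16 for TMPRSS2, −3.78 for TMPRSS4 and 8.46 for TMPRSS6. The directions therefore did not rest on that library.

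Levels of different genes were compared within a line per length of exon, as TPM (counts per kilobase, scaled to 1000000 per library). In parental cells, ST14 (155 ± 5.06 TPM) and SPINT1 (155 ± 7.15 TPM) led and overlapped. They were followed by SPINT2 (104 ± 4.12), HPN (92.3 ± 2.55), PRSS8 (50.8 ± 0.406), TMPRSS2 (45.4 ± 2.36), TMPRSS4 (0.720 ± 0.105), TMPRSS6 (0.0651 ± 0.0538) and TMPRSS3 (0.0109 ± 0.0119), each apart from the next in all libraries. In LNCaP-enzaR, SPINT1 (185 ± 7.69 TPM) stood alone at the top and HPN came next (143 ± 15.6), ahead of SPINT2 (114 ± 9.94) and ST14 (94.1 ± 3.69). PRSS8 (71.1 ± 5.02), TMPRSS2 (40.9 ± 0.894) and TMPRSS6 (21.0 ± 2.52) came after these. TMPRSS4 (0.0392 ± 0.0228) and TMPRSS3 (0.0282 ± 0.0433) overlapped at the bottom. Hepsin thus took over from matriptase as the protease with the highest level per length, and TMPRSS6 moved from near absence to a level of the same order as TMPRSS2. The order depended in part on the length used: by the longest transcript in place of all exons, 6 of 8 neighbours in the parental order and 5 of 8 in that of LNCaP-enzaR did not overlap, beside 7 and 7, and HPN overlapped SPINT1 in LNCaP-enzaR. On the TPM scale SPINT2 overlapped between the lines, and the fold limit was not applied to that scale.

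**Figure D3:**
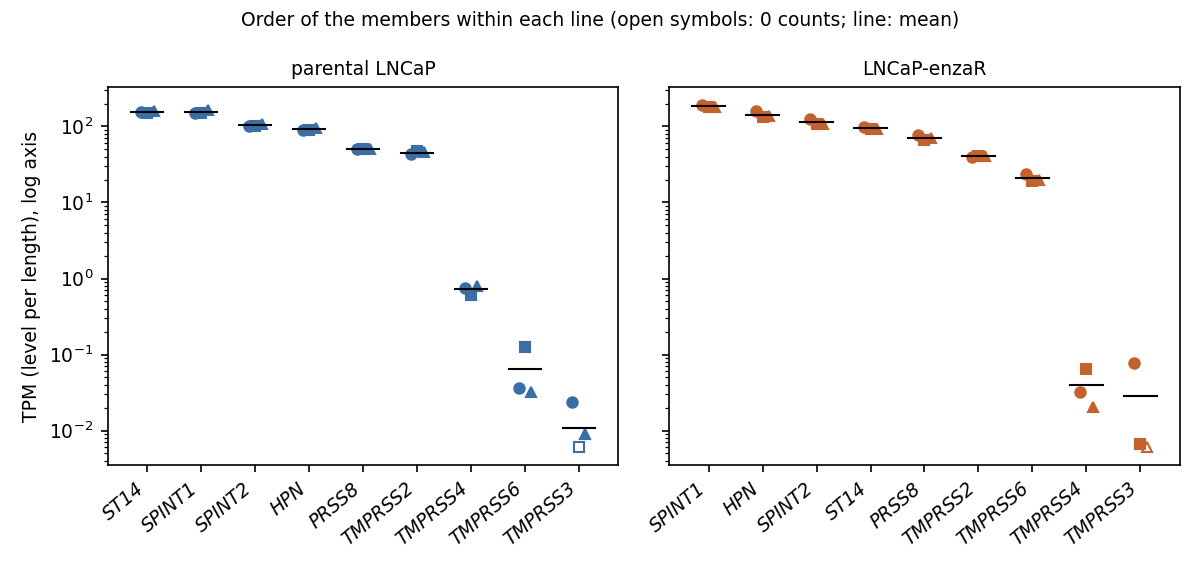
TPM of the 9 genes in each library (vertical log axis), ordered by their mean within parental LNCaP (left) and LNCaP-enzaR (right). ST14 leads with SPINT1 in parental cells and lies below SPINT1, HPN and SPINT2 in LNCaP-enzaR, and TMPRSS6 rises from 0.0651 to 21.0 TPM on average.

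Ratios between genes within a library do not depend on library scaling. ST14 over SPINT1 was 1.03, 0.992 and 0.985 in parental libraries and 0.508, 0.516 and 0.501 in LNCaP-enzaR, so matriptase transcripts fell from parity with those of HAI-1 to 0.508 ± 0.00757 of them (SD, n = 3). HPN over ST14 went from 0.596 ± 0.00446 to 1.52 ± 0.107, and PRSS8 over ST14 from 0.329 ± 0.00917 to 0.754 ± 0.0299. Summed over the 7 proteases and over both inhibitors, the ratio differed little, at 1.33 ± 0.0251 in parental cells and 1.24 ± 0.0137 in LNCaP-enzaR, although the libraries did not overlap. Within the summed proteases, ST14 made up 45.0% ± 0.610 in parental cells and 25.5% ± 0.817 in LNCaP-enzaR, HPN 26.8% ± 0.165 and 38.6% ± 1.48, PRSS8 14.8% ± 0.256 and 19.2% ± 0.318, and TMPRSS6 0.0190% ± 0.0159 and 5.65% ± 0.280. These ratios are of transcripts, and neither protein nor activity was measured.

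**Figure D4:**
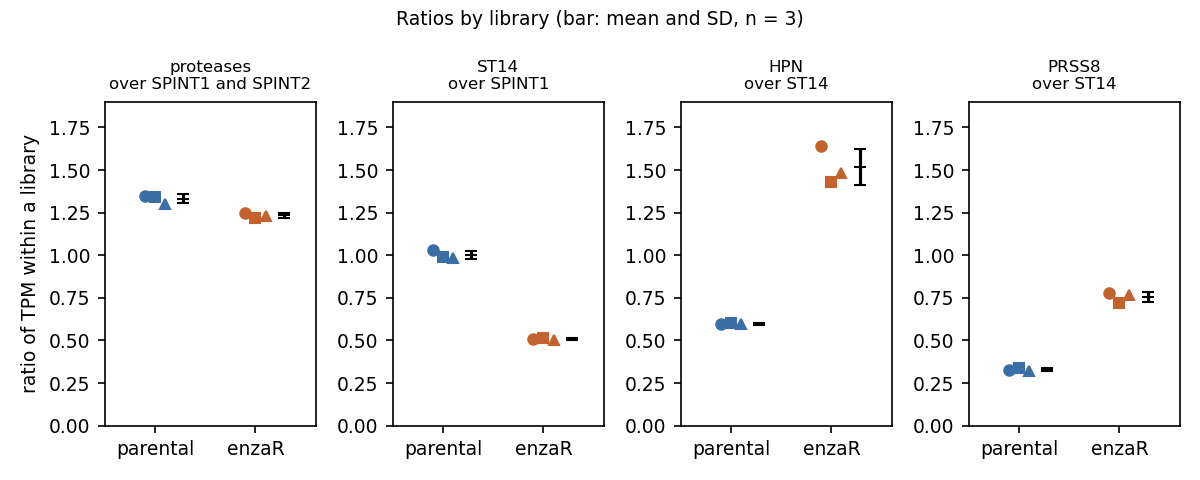
Ratios of TPM within each library for parental LNCaP (blue) and LNCaP-enzaR (orange), with mean and SD (n = 3). Proteases over both inhibitors lie at 1.33 and 1.24, while ST14 over SPINT1 goes from 1.00 to 0.508 and HPN over ST14 from 0.596 to 1.52.

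Since TMPRSS6 and HPN are abundant in liver, hepatocyte markers are given beside them. The 8 marker genes summed to 11.2 to 13.2 CPM in parental libraries, with ALB the largest part, and to 96.4 to 120 CPM in LNCaP-enzaR libraries. Most of the latter came from TTR, which rose from 3.59 ± 0.239 to 103 ± 13.2 CPM (edgeR adjusted p = 6.28e-14). CYP3A4 also rose at a low level, from 0, 5 and 0 counts in parental libraries to 38, 45 and 59 in LNCaP-enzaR (adjusted p = 5.10e-05). ALB, the defining marker, fell from 7.92 ± 0.639 to 0.691 ± 0.128 CPM (adjusted p = 6.60e-11), and APOA2 and FGB never exceeded 3 counts. APOA1 and SERPINA1 were not past the threshold (adjusted p = 0.406 and 0.972), and TF did not pass the filter on low counts. The part of these genes in the levels of TMPRSS6 and HPN was not tested. In bulk RNA, fewer cells of a kind and less RNA per cell cannot be told apart.

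Neighbouring genes were examined for each of the 9 genes, taking the nearest tested protein-coding gene on either side, and 9 of 18 were past the threshold, beside 42.7% of all genes tested. Both neighbours of TMPRSS6 rose, but by much less than TMPRSS6 itself: KCTD17 by 0.72 ± 0.088 SE on the log2 scale (edgeR adjusted p = 4.88e-06) and C1QTNF6 by 1.68 ± 0.12 SE (adjusted p = 1.17e-08). On either side of TMPRSS4, TMPRSS13 fell (−0.67, SE 0.13, adjusted p = 0.000525) and SCN4B rose (1.13, SE 0.23, adjusted p = 0.00064). RHOV beside SPINT1 (1.41), RSPH1 beside TMPRSS3 (1.29), and MX1 (0.76) and RIPK4 (0.84) around TMPRSS2 rose as well, with an adjusted p of 5.84e-05 or less. Neighbours of ST14, PRSS8 and SPINT2 were not past the threshold.

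Of the 11 other type II transmembrane serine proteases, 5 were tested, of which 0 rose and 2 fell (beside 23.3% and 19.5% of all genes). TMPRSS11E, at 4.02 ± 0.387 CPM in parental cells, had 0.421 ± 0.0578 CPM in LNCaP-enzaR (−3.24 ± 0.18 SE on the log2 scale, edgeR adjusted p = 9.53e-10) and TMPRSS13 had 2.65 ± 0.221 CPM against 4.21 ± 0.515. The call of TMPRSS13 was lost with upper-quartile scaling (−0.57) and without parental replicate 1 (−0.58). TMPRSS9, at 0.673 ± 0.0404 and 0.543 ± 0.0904 CPM, was not past the threshold (adjusted p = 0.333), nor were CORIN and TMPRSS5. The median log2 fold change was −0.31. No gene of this list exceeded 5 CPM in either line on average. Of 5 further membrane-anchored serine proteases, 2 were tested. TPSG1 rose from 0.118 ± 0.0867 to 1.01 ± 0.416 CPM (adjusted p = 5.29e-05, log2 fold change 3.05, and 3.81 without parental replicate 1), and PRSS21 fell to 6 counts over the LNCaP-enzaR libraries from 51 over the parental ones (adjusted p = 0.00357), a ratio of 8.88 (95% counting interval 3.81 to 25.3).

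Among 17 other inhibitors of serine proteases, 9 were tested, of which 4 rose and 1 fell (beside 23.3% and 19.5% of all genes; median log2 fold change 0.44). TFPI, the Kunitz inhibitor of the tissue factor pathway, reached 410 ± 49.3 CPM against 160 ± 5.41 (1.36 ± 0.076 SE on the log2 scale, edgeR adjusted p = 1.15e-09). SLPI, a secreted inhibitor of leukocyte proteases, reached 10.2 ± 0.537 CPM against 3.60 ± 0.554 (adjusted p = 3.52e-08). A2M, a broad protease trap, rose at a low level, from 0.0547 ± 0.0613 to 0.433 ± 0.0438 CPM (adjusted p = 0.00111). Its log2 fold change of 2.91 became 4.15 without parental replicate 2. SPINK1 went from 3 counts in all parental libraries to 94 in LNCaP-enzaR, a ratio of 30.0 (95% counting interval 9.95 to 148, adjusted p = 4.93e-05), and its fitted log2 fold change of 4.74 became 5.54 without parental replicate 1. The abundant Kunitz-domain genes APLP2 (log2 fold change 0.44, adjusted p = 4.52e-06) and APP (−0.30, adjusted p = 9.90e-05) differed beyond the replicate spread but short of 1.5-fold. SERPINE2, an inhibitor of thrombin and urokinase, was the gene that fell, from 9.04 ± 0.195 to 4.94 ± 0.416 CPM.

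Of 14 genes whose products these proteases are known to cleave, 11 were tested, 3 rose and 2 fell, a share close to the 42.7% of all genes, with a median of 0.12. Of the laminin-332 chains, LAMA3 rose from 30.2 ± 2.24 to 87.5 ± 3.18 CPM (1.54 ± 0.067 SE on the log2 scale, edgeR adjusted p = 8.68e-11) and LAMB3 from 0.166 ± 0.0626 to 4.22 ± 0.783 CPM (4.64 ± 0.25 SE, adjusted p = 7.87e-10). MST1, the precursor of macrophage stimulating protein, was the remaining gene that rose (1.12, adjusted p = 2.11e-05). SCNN1G, a subunit of the epithelial sodium channel, fell by 1.06 on the log2 scale from 1.04 ± 0.254 CPM (adjusted p = 0.00902). The matriptase substrates EPCAM (log2 fold change 0.41, adjusted p = 1.67e-05) and CDCP1 (−0.25, adjusted p = 0.00111) differed by less than 1.5-fold, and F2RL1, which encodes the receptor PAR2, lay just under that limit (0.58). Without LNCaP-enzaR replicate 1, 8 substrate genes were past the threshold. Transcripts of the growth factor precursor HGF were not analysed here. Of the 3 receptors of ligands that these proteases activate, MET rose to 3.12 ± 0.416 from 0.363 ± 0.0681 CPM (3.09 ± 0.21 SE on the log2 scale, edgeR adjusted p = 7.74e-09), PLAUR fell (−1.11, adjusted p = 0.00452), and MST1R, at 0.137 and 0.141 CPM on average, was not past the threshold.

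The iron sensing pathway in which matriptase-2 acts was represented by 20 genes, of which 18 were tested. Among these, 9 fell and 2 rose (beside 19.5% and 23.3% of all genes), with a median log2 fold change of −0.71. HJV, the substrate of matriptase-2, never exceeded 2 counts in a library, and HAMP, which encodes hepcidin, never exceeded 4, and no difference was detectable for either at this depth. TFRC, the transferrin receptor and most abundant gene of the list, fell from 502 ± 12.2 to 238 ± 16.9 CPM (−1.07 ± 0.059 SE on the log2 scale, edgeR adjusted p = 9.54e-10), and ID1, a target of BMP signalling, from 234 ± 16.4 to 114 ± 16.5 CPM (−1.04, SE 0.089, adjusted p = 1.20e-07). BMPR2, a BMP receptor, was short of the fold limit (−0.27, adjusted p = 0.00198). The iron exporter SLC40A1 was at 0 counts in all LNCaP-enzaR libraries, at least 14.1-fold lower than in parental cells against a floor of 3 counts per library (adjusted p = 5.38e-06). ERFE, the erythroferrone gene, fell from 260 to 5 counts over the libraries, a ratio of 54.3 (95% counting interval 23.0 to 169, adjusted p = 7.19e-08), and its fitted log2 fold change of −5.66 became −6.35 without LNCaP-enzaR replicate 2. Both genes that rose were BMP ligands: BMP6 from 2.11 ± 0.0828 to 8.67 ± 0.660 CPM (2.04 ± 0.11 SE, adjusted p = 8.52e-10), and BMP2, with 0 counts in parental cells, by at least 13.2-fold against the same floor (adjusted p = 7.34e-06).

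**Figure D5:**
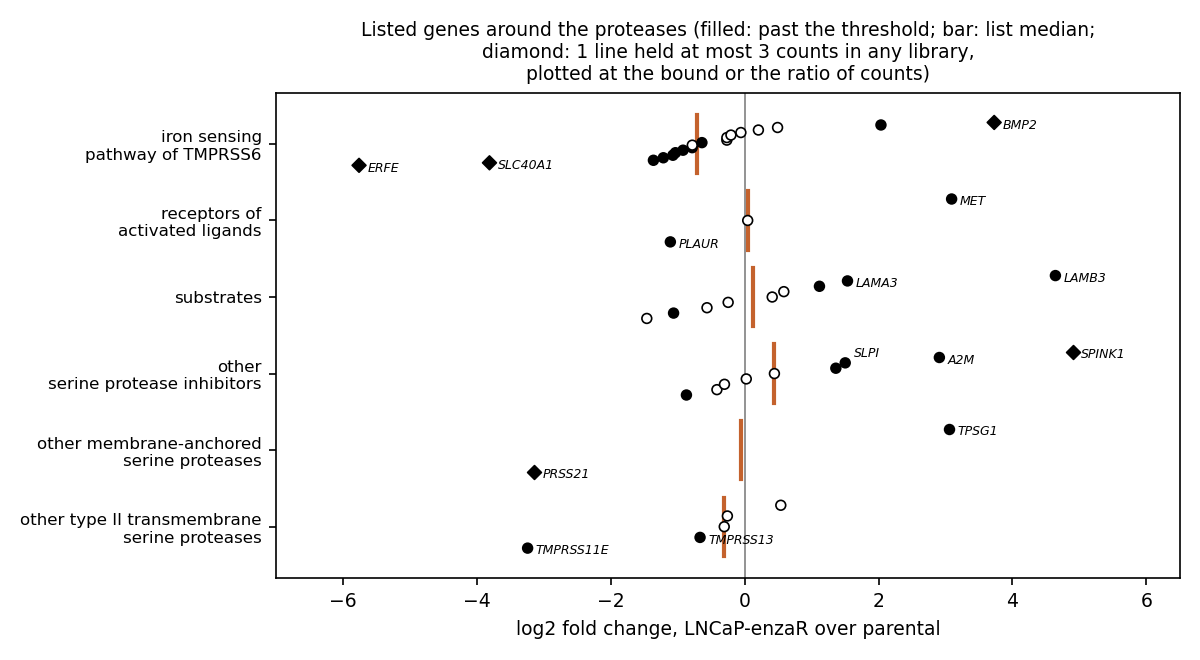
Log2 fold change of LNCaP-enzaR over parental for the tested genes of each list that are reported here, filled where past the threshold, with the median of the whole list as an orange bar. Diamonds mark genes with at most 3 counts in any library of 1 line, placed at their bound or ratio of counts. The iron sensing list has its median at −0.71 and the other inhibitors at 0.44, and each list but the other type II transmembrane serine proteases has called genes on both sides of 0.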

How the data were processed

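RNA sequencing libraries of polyadenylated RNA (Illumina TruSeq, paired-end) were made by the authors from 3 flasks of each line. They trimmed adapters with Cutadapt, aligned reads to GRCh38 with STAR and GENCODE v38, and deposited raw counts per gene from featureCounts, not normalized. Strand, multi-mapped reads and the unit counted (read or fragment) are not given in the sources used here.

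Group and replicate were read from the sample titles. The genes, the lists around them and the rules for naming genes were chosen with earlier results of these data known. Beside all 9 genes, the rule names the 3 most abundant and the 3 most changed genes of each list, both neighbours, antisense genes and the genes most like the most changed and the most abundant member (log2 of CPM plus 0.03). Genes outside it (KLK3, KRT14, COL1A1, VWF, TTR, ALB, CYP3A4, APOA1, SERPINA1, TF, MST1, SERPINE2, SCNN1G, F2RL1, CORIN, TMPRSS5, BMP6, HJV and HAMP) were named after their values were seen. A few genes that the rule names are counted but not reported here by name.

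The test was that of edgeR 4.0.16 (R 4.3.3): filterByExpr (19711 genes, 99.96% of the counts), TMM, and a robust quasi-likelihood fit on line alone, with Benjamini-Hochberg adjustment over all genes tested. A call needed a 1.5-fold difference and an adjusted p up to 0.05, as in the study's methods, which used DESeq2 (1.42.0 here, as an alternative). Lengths were unions of exons in GENCODE v44 (99.8% of genes found by identifier). TPM was computed here. The fit was tested on simulated counts. Alternatives changed the scaling (RLE, library totals, upper quartile), the filter (none, a minimum of 10 per library, protein-coding only) or the model (replicate block). Others removed each library in turn, used another fold limit or transcript length, or, added after the data were seen, left out mitochondrial genes. Intervals and floors cover counting error only, since amplified reads are not independent molecules.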

Additional observations from a re-analysis of the deposited data

How the results depend on the processing

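All 8 genes tested kept the direction of their CPM difference under every alternative fit, and 7 kept their side of the threshold. The exception was SPINT1, past it with upper-quartile scaling (0.67), at least 10 counts in every library (0.60) and protein-coding genes only (0.60), and ranging from 0.52 to 0.61 over the fits that left out 1 library. TMPRSS4 and TMPRSS6 could not be fitted with at least 10 counts in every library. On the TPM scale LNCaP-enzaR lay lower relative to parental cells than on the CPM scale for all 8 genes. TMPRSS2 turned (from 45.4 to 40.9 TPM), ST14 went from 155 to 94.1, PRSS8 from 50.8 to 71.1 and SPINT1 from 155 to 185. Calls and distances from the fold limit therefore hold for CPM only, and no threshold was applied to TPM. Without a minimum fold, 13074 of the 19711 genes tested, 8 of the 8 members tested and 9 of 11 substrates were past the threshold. With a fold of at least 2, these were 5561 of 19711 genes, 2 of 8 members (TMPRSS6 and TMPRSS4) and 1 of 5 other type II transmembrane serine proteases. As for the main fit, nothing is read from the counts of members, which were proposed from this contrast. Leaving out 1 library gave 8372 to 8517 genes (20368 to 20572 tested), 4 to 5 members, 5 to 8 substrates and 1 to 2 other type II transmembrane serine proteases. Upper-quartile scaling shifted the median log2 fold change of all genes by 0.10, raised the share of higher calls from 54.5% to 60.9% and left 1 other type II transmembrane serine protease. With at least 10 counts in every library, fewer genes were tested, and 0 of the further membrane-anchored proteases (2 as reported) and 3 other inhibitors (5 as reported) were past the threshold.

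The same held for 23 of the 25 genes named from the lists. MST1R, at 6 to 17 counts a library, reversed with the replicate block (−0.0075), and over the fits that left out 1 library ranged from −0.23 to 0.37. TMPRSS13 is given in the report. Protease ratios moved with the measure of length: the sum over both inhibitors was 1.52 in parental cells and 1.44 in LNCaP-enzaR by the longest transcript and 1.17 in LNCaP-enzaR by counts, and ST14 over SPINT1 was 1.08 and 0.546 by the longest transcript and 1.16 and 0.591 by counts. In each case LNCaP-enzaR was lower. The replicate numbers did not pair the libraries (correlation of deviations −0.21 to 0.0085). With the replicate block, 8212 of 19711 genes tested, 4 of 8 members and 27 of 48 listed genes were past the threshold.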
